A study of Mus musculus with 2 samples.

Results

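The Fcγ receptor genes described here are 5 of the 31053 genes in the count tables, chosen by symbol: *Fcgr1* and *Fcgr4*, which encode activating receptors for IgG, *Fcer1g*, which encodes the signalling chain that these receptors share, *Fcgr2b*, which encodes the inhibitory receptor, and *Fcgrt*, which encodes the heavy chain of the neonatal Fc receptor, FcRn. They were measured by 10x 3′ single-cell RNA sequencing in kidney cells of MRL-*lpr* mice, which carry the *lpr* mutation of *Fas* and develop lupus-like disease as they age. There were 2 libraries, 1 from the pooled kidneys of young and 1 from those of old MRL-*lpr* mice, so both ages share the mutation and no replicate checks a difference. The labels call the libraries young and old, and the methods put young MRL-*lpr* mice at 5 to 8 weeks and old ones above 16 weeks of age. Cells were enriched by density gradient and with a pan-ILC kit and sorted as live, so the share of a cell type in a library is not its frequency in the kidney.

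Fcγ receptors bind the constant part of IgG and let cells respond to antibody-coated targets and immune complexes, which deposit in the glomeruli in lupus nephritis. Activating receptors signal through an ITAM in the common γ chain, which recruits the kinase Syk, whereas FcγRIIB carries an ITIM that recruits the phosphatase SHIP1 and is the only classical Fcγ receptor of B cells. FcRn pairs with β2-microglobulin and protects IgG and albumin from breakdown, in the kidney also in tubule cells that take up filtered protein.

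Cells needed 200 genes or more, and no more than 20% of their unique molecular identifiers (UMIs) from mitochondrial genes, which left 11429 young and 10232 old cells with medians of 7881 and 6933 UMIs. Of these, 26 barcodes occurred in both libraries. Cells were placed in classes by fixed marker genes and are called by the class with "-like". Cells that met the gates of more than 1 lineage, or tied between classes, were left out of the classes (4.56% of young and 5.42% of old cells). So were cells of no class (16.2% and 9.28%), and 9 classes had at least 20 cells in both libraries. The T, NK or ILC1 and ILC2 gates counted as 1 lineage, as did the B and plasma gates, and all myeloid gates. A cell that met several gates of 1 lineage went to the class with the largest fraction of its markers found. Levels are in CPM, a gene's UMIs per 1000000 UMIs of its class. All intervals are 95% intervals of counting error only, and they leave out the variation between cells and mice. PT-like cells, which carry proximal tubule (PT) markers, made up 5876 young and 3314 old cells, and PT transcripts were also found in other classes. The PT transporter gene *Slc34a1* stood at 158 CPM in young and 31.9 CPM in old macrophage-like cells, against 3896 and 2845 CPM in PT-like cells.

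The promoters of the 2 activating receptor genes are shown because, among the classes, both genes were nearly confined to myeloid ones. On the GRCm38.p6 assembly, the RefSeq window before the start of *Fcgr1* is chr3:96293970-96294219 on the minus strand, and that of *Fcgr4*, up to the GENCODE start, is chr1:171018676-171018919 on the plus strand. Capitals mark matches to TTCNNNGAA, the form of a gamma-activated site, and to GAGGAA on either strand (read as TTCCTC here), the core of sites bound by the myeloid factor PU.1.
Fcgr1: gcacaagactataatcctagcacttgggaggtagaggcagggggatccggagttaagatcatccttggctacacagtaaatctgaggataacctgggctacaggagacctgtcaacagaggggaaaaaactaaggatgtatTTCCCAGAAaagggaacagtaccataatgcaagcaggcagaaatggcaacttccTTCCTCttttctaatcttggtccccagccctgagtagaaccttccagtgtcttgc
Fcgr4: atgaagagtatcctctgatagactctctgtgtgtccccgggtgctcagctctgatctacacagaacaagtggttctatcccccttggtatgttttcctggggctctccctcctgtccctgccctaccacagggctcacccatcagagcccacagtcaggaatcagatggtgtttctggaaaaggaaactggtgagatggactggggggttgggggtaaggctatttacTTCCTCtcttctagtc
*Fcgr1* held TTCCCAGAA 109 bases and TTCCTC 55 bases before the start, and *Fcgr4* held TTCCTC 16 bases before the GENCODE and 22 bases before the RefSeq start, counted from the first base of the match. In windows of the same 250 bases, TTCNNNGAA was found in 7.02% and GAGGAA in 23.3% of 32851 RefSeq promoters. Neither was found in the RefSeq windows of *Fcer1g*, *Fcgr2b* or *Fcgrt*. All 250 bases of the *Fcgr2b* window lie inside its GENCODE gene, so the bases before its GENCODE start were not searched. The matches do not overlap each other and are a description of the letters only.

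*Fcgr1* (chromosome 3, 96282909 to 96293969, minus strand), the high-affinity receptor gene, was highest in macrophage-like cells of both libraries and next highest in monocyte-like cells. It stood at 198 CPM (157 to 246) in 74 young and 174 CPM (150 to 201) in 48 old macrophage-like cells, and at 85.4 CPM (71.8 to 101) in 189 young and 67.2 CPM (59.7 to 75.4) in 356 old monocyte-like cells. Macrophage-like exceeded monocyte-like cells by 1.21 (0.80 to 1.62) on the log2 scale in the young and by 1.37 (1.10 to 1.64) in the old library. The old over young log2 ratio was -0.18 (-0.57 to 0.21) in macrophage-like cells, an interval that includes 0, and -0.35 (-0.64 to -0.04) in monocyte-like cells. In the other classes few UMIs were found, while cells of mixed markers, which were left out of the classes, held 16.2% of young and 14.1% of old *Fcgr1* UMIs. Neutrophil-like cells held 5 UMIs in the young, 3 of them in 1 cell, and 0 in the old library, and PT-like cells held 1 and 4. None of 590 young or 4061 old T-like cells had a UMI.

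*Fcgr4* (chromosome 1, 171018920 to 171029761, plus strand) encodes the activating receptor for IgG2 subclasses, and its order among the myeloid classes differed between the libraries. In the young library it was highest in macrophage-like cells, at 297 CPM (246 to 355), followed by neutrophil-like cells at 108 CPM (77.9 to 145) and monocyte-like cells at 93.4 CPM (79.1 to 109), whose difference was within counting error. In the old library it was highest in monocyte-like cells, at 282 CPM (267 to 298), ahead of macrophage-like cells at 197 CPM (172 to 225) and neutrophil-like cells at 135 CPM (107 to 168). Monocyte-like cells of the old library thus had 3.02-fold the level of the young (log2 ratio 1.60, 1.35 to 1.85), while macrophage-like cells had a log2 ratio of -0.59 (-0.92 to -0.26) and neutrophil-like cells one of 0.33 (-0.23 to 0.90). The macrophage-like direction rests on the C1q genes of the gate: with any 2 of 6 macrophage markers, an alternative added after the data were seen, the ratio was 0.21 (-0.05 to 0.47).

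The share of cells with an *Fcgr4* UMI moved the same way as the level in monocyte-like cells. It was 30.2% (23.7 to 37.2) of young and 56.7% (51.4 to 62.0) of old monocyte-like cells, at median depths of 8791 and 10618 UMIs. With every cell thinned to 1000 UMIs, the shares were 9.68% (5.84 to 14.9) and 20.8% (16.7 to 25.4). In macrophage-like cells, the thinned shares were 28.4% (18.5 to 40.1) and 20.8% (10.5 to 35.0), and these intervals overlap. The background was low: 0 of 590 young T-like cells had a UMI, which allows a share of up to 0.508%, and 0.0492% of old T-like cells had one, at median depths of 4763 and 4825 UMIs. In old macrophage-like cells 1 cell held 24.1% of the *Fcgr4* UMIs.

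*Fcer1g* (chromosome 1, 171229572 to 171234365, minus strand) was the most abundant of the 5 genes in each myeloid class and was also high in NK or ILC1-like cells, in which the γ chain serves other receptors. In the young library it stood at 2226 CPM in monocyte-like, 2165 CPM in neutrophil-like, 1749 CPM in macrophage-like, 1237 CPM in NK or ILC1-like and 429 CPM in plasmacytoid dendritic-like cells. The old library had 3184, 2300.3, 2590.3, 1474 and 579 CPM in the same classes. The young monocyte-like and neutrophil-like levels did not differ beyond counting error, and each of the other neighbours in these orders did. The log2 ratio of old over young was 0.57 (0.45 to 0.69) in macrophage-like, 0.52 (0.46 to 0.57) in monocyte-like, 0.43 (0.20 to 0.66) in plasmacytoid dendritic-like and 0.25 (0.10 to 0.41) in NK or ILC1-like cells. In neutrophil-like cells it was 0.09 (-0.04 to 0.21), an interval that includes 0.

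NK or ILC1-like cells had the chain without the receptors described here. All 58 young and 98.7% of 158 old cells had an *Fcer1g* UMI, and 70.7% and 72.0% had one at 1000 UMIs per cell. The same cells held no *Fcgr1* UMI, 0 and 1 *Fcgr4* UMIs and 0 and 1 *Fcgr2b* UMIs. The low-affinity activating receptor gene *Fcgr3*, the Fcγ receptor known for NK cells, stood at 31.3 CPM in young and 37.6 CPM in old NK or ILC1-like cells, against 567 and 607 CPM in macrophage-like cells.

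**Figure D1:**
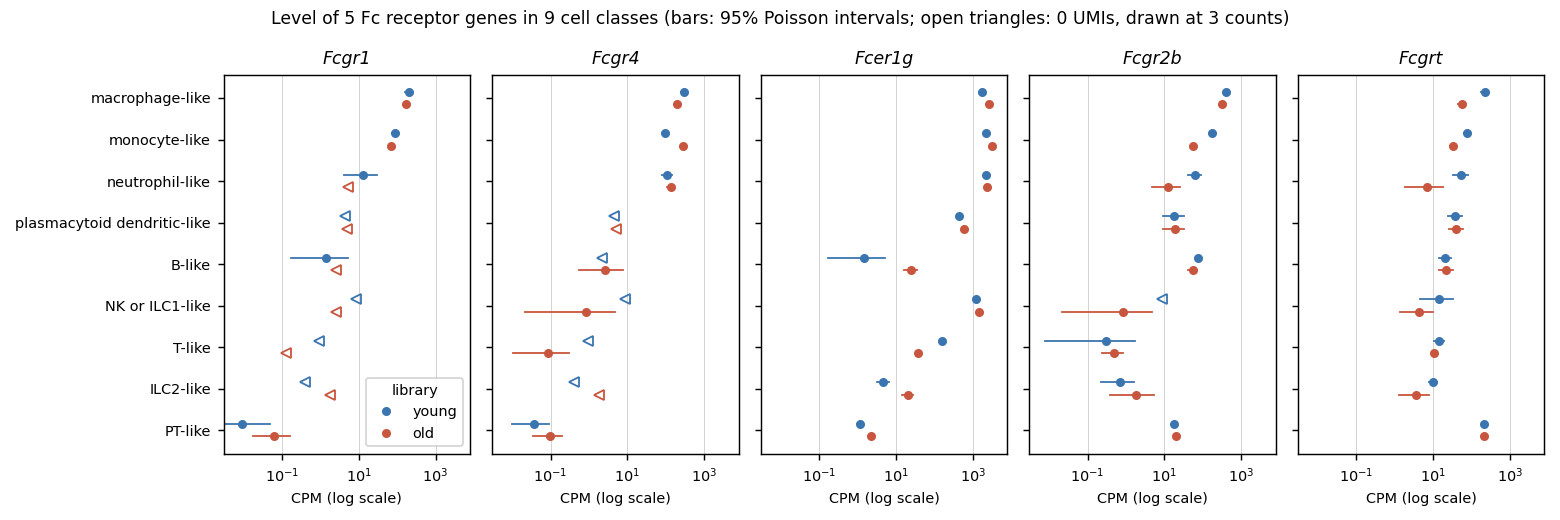
CPM of the 5 genes (panels) in 9 classes, on a log axis, in the young (blue) and old (red) library, with 95% Poisson intervals as bars and open triangles at the limit of 3 counts where a class had no UMI. *Fcgr1* and *Fcgr4* have their highest levels in myeloid classes, *Fcer1g* is also high in NK or ILC1-like cells at 1237 and 1474 CPM, and *Fcgrt* stands at 214 and 219 CPM in PT-like cells.

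In T-like cells *Fcer1g* was 4.10-fold lower in the old library, at 155 CPM (142 to 169) in 590 young and 37.8 CPM (35.3 to 40.4) in 4061 old cells, a log2 ratio of -2.03 (-2.19 to -1.87). The size depends on the gate and the weighting: the log2 ratio was -1.41 (-1.61 to -1.21) with 1 more marker asked for, -1.44 (-1.59 to -1.29) with cells of mixed markers kept, and -2.86 for the mean of each cell's CPM. The share of cells with a UMI was 15.3% (12.4 to 18.4) and 3.0% (2.5 to 3.58), and at 1000 UMIs per cell 10.1% (7.75 to 12.8) and 1.35% (1.01 to 1.75). ILC2-like cells, at 4.73 and 20.5 CPM, had UMIs in 1.24% and 4.73% of cells, and PT-like cells in 1.14% and 3.08%. At 1000 UMIs, old ILC2-like and PT-like cells had 2.39% (0.97 to 4.86) and 0.21% (0.085 to 0.44), so the old T-like share lay above the PT-like share and within counting error of the ILC2-like share. The old T-like UMIs stood in few cells, 880 in 122 cells, which had 703 CPM (657 to 751). Split by UMIs of *Cd4*, *Cd8a* and *Cd8b1*, a split chosen after the data were seen, the young *Fcer1g* stood mostly in cells with none of them. These had 299 CPM (273 to 328) in 294 young and 44.4 CPM (39.8 to 49.4) in 1690 old cells, with thinned shares of 18.3% (14.0 to 23.2) and 1.45% (0.93 to 2.16). T-like cells with *Cd4* only had 13.7 and 21.9 CPM and those with *Cd8a* or *Cd8b1* only 36.6 and 47.1 CPM, with intervals of the ratio that include 0 on the log2 scale. Cells with few UMIs can lack coreceptor UMIs by depth alone, and the median depth of the group with none was 4535 UMIs in the young and 3845 in the old library.

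T-like cells with *Fcer1g* carried other genes of innate lymphocytes. Of the 90 young and 122 old cells, 81.1% and 63.1% had *Klrd1*, which encodes the NK receptor chain CD94, against 25% and 22.6% of T-like cells without *Fcer1g*. *Tyrobp*, which encodes the adaptor DAP12, was found in 56.7% and 34.4% against 2.40% and 2.28%, and *Xcl1*, a chemokine gene, in 71.1% and 50.0% against 18.2% and 10.8%. *Ncr1*, the NK and ILC1 marker used in the gate, was found in 58.9% and 31.1% against 0.80% and 0.305%, so droplets with both T and NK markers stand among them. *Trdc*, the constant gene of the γδ T cell receptor, was found in 34.4% and 23.0% against 12% and 1.83%. The monocyte gene *Lyz2* was found in 3.33% and 6.56% of the cells with *Fcer1g* and in 2.20% and 5.76% of those without. All these shares are without thinning, and a deeper cell more often has a UMI of any gene. The part of depth in the differences was not tested.

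**Figure D2:**
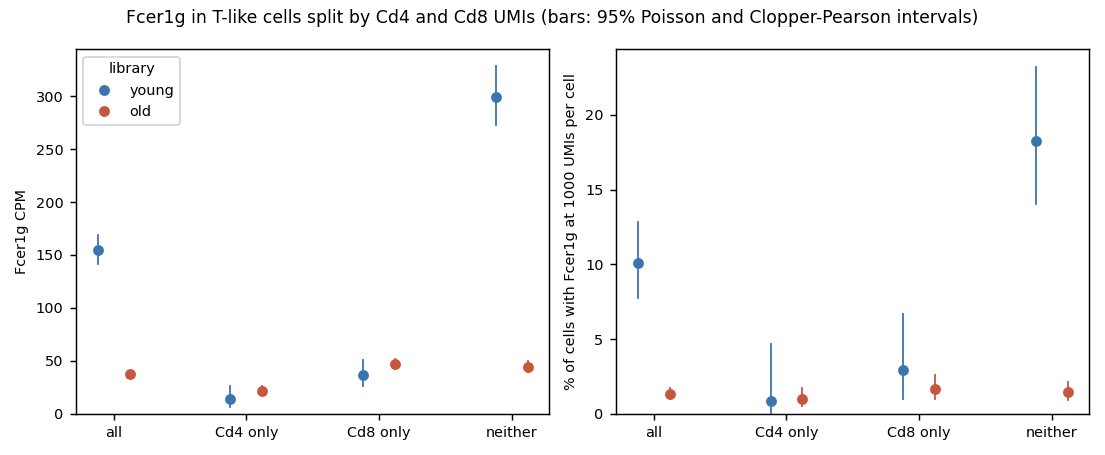
*Fcer1g* in T-like cells, whole and split by UMIs of *Cd4* and *Cd8*, as CPM with 95% Poisson intervals (left) and as the percentage of cells with a UMI at 1000 UMIs per cell with Clopper-Pearson intervals (right), in the young (blue) and old (red) library. Young cells with neither coreceptor stand apart at 299 CPM and 18.3%, and the other groups lie at or below 47.1 CPM except the young cells as a whole at 155 CPM.

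*Fcgr2b* (chromosome 1, 170958617 to 170976547, minus strand), the inhibitory receptor gene, was highest in macrophage-like cells in both libraries and lower in the old library in macrophage-like and monocyte-like cells. It stood at 411 CPM (351 to 478) in young and 308 CPM (276 to 343) in old macrophage-like cells, a log2 ratio of -0.41 (-0.69 to -0.14). By sex-linked UMIs this ratio was -0.13 (-0.57 to 0.32) with Y-linked UMIs and no *Xist* and -0.13 (-0.70 to 0.48) with *Xist* alone. Both of these intervals include 0. In monocyte-like cells *Fcgr2b* stood at 177 CPM (157 to 199) and 55.6 CPM (48.8 to 63.1). There it was 3.18-fold lower in the old library (log2 ratio -1.67, -1.92 to -1.42). Neutrophil-like cells had 25 and 7 UMIs, or 62.6 and 12.1 CPM, a log2 ratio of -2.37 (-3.82 to -1.12), but 56.0% of the young UMIs came from 1 cell. Without that cell, an alternative added after the data were seen, the young level was 28.5 CPM (14.3 to 51.1) and the log2 ratio -1.24 (-2.84 to 0.26). The share of monocyte-like cells with a UMI was 52.9% in the young and 30.3% in the old library, and 13.4% (8.89 to 19.2) and 5.13% (3.07 to 7.98) at 1000 UMIs per cell. *Fcgr2b* and *Fcgr3* are similar in their extracellular parts, and *Gm38204*, an antisense gene on chromosome 1 from 170973373 to 170977746, overlaps *Fcgr2b* on the other strand. The 3′ kit keeps the strand, and how shared reads were split was not tested.

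In B-like cells *Fcgr2b* was the only one of the 3 IgG receptor genes above background. It stood at 74.9 CPM (61.2 to 90.7) in 347 young and 54.2 CPM (41.6 to 69.5) in 157 old cells, a log2 ratio of -0.47 (-0.94 to 0.00) that reaches 0. A UMI was found in 24.8% and 28.0% of these cells at median depths of 3770 and 5829 UMIs, and in 6.14% and 5.81% at 1000 UMIs, against 0% and 0.0499% of T-like cells. *Fcgr1* had 2 UMIs in the young and 0 in the old B-like cells, and *Fcgr4* had 0 and 3. *Fcer1g* had 2 UMIs in young and 28 in old B-like cells, the latter in 4.46% of cells with 11 in 1 cell, and markers shared by macrophages and monocytes summed to 158 CPM in young and 543 CPM in old B-like cells. Their part in the old *Fcer1g* count was not tested.

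PT-like cells also held *Fcgr2b* at a lower level, and they held 65.4% of its young and 56.0% of its old UMIs. These cells were 5876 of 11429 young and 3314 of 10232 old cells. They were also deeper than the median of all cells, 7881 and 6933 UMIs. The shares thus follow their number and depth and are no sign of a high level. *Fcgr2b* stood at 17.6 CPM (16.8 to 18.4) and 20.3 CPM (19.2 to 21.4) over 1960 and 1297 UMIs, a log2 ratio of 0.20 (0.10 to 0.31). At median depths of 15954 and 16244 UMIs, 25.7% and 28.9% of PT-like cells had a UMI, and 1.80% (1.47 to 2.17) and 2.51% (2.0 to 3.1) at 1000 UMIs. T-like cells stood at 0.31 and 0.47 CPM and ILC2-like cells at 0.68 and 1.81 CPM, so the PT-like level lay above that of these lymphoid classes. In the same cells *Fcgr1* had 1 and 4 UMIs and *Fcgr4* 4 and 6 UMIs, and the 3 C1q genes with *Adgre1*, *Ms4a7* and *Mrc1* summed to 0.43 and 0.80 CPM. The 7 markers shared by macrophages and monocytes summed to 9.24 and 12.5 CPM and the 7 neutrophil markers to 3.5 and 6.51 CPM. The part of myeloid RNA in the PT-like *Fcgr2b* level was not tested. Cells with the early-segment transporter gene *Slc5a2* and no *Slc7a13* had 22.6 and 25.5 CPM, and those with the late-segment gene *Slc7a13* and no *Slc5a2* had 12.5 and 14.9 CPM. No *Fcgr2b* UMI was found in 280 young endothelial-like cells, an upper limit of 1.96 CPM from 3 counts.

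Of the UMIs of *Fcgrt* (chromosome 7, 45092990 to 45103851, minus strand), PT-like cells held 89.9% in the young and 85.2% in the old library. These cells were 5876 of 11429 young and 3314 of 10232 old cells and deeper than the median of all cells. The shares thus follow their number and depth in part. By level, *Fcgrt* was highest in PT-like cells in the old library, while young macrophage-like and PT-like cells did not differ beyond counting error. Its PT-like level was 214 CPM (211 to 216) and 219 CPM (215 to 223), a log2 ratio of 0.04 (0.01 to 0.07) whose interval reached below 0 with at most 10% mitochondrial UMIs (-0.01 to 0.06), and 86.1% and 88.6% of PT-like cells had a UMI. *B2m*, which encodes the partner chain of FcRn and of MHC class I, stood at 177 CPM in young and at 1366 CPM in old PT-like cells, a log2 ratio of 2.95 (2.93 to 2.97). In macrophage-like cells *Fcgrt* stood at 223 CPM (179 to 274) in the young, within counting error of PT-like cells, and at 58.4 CPM (45.0 to 74.5) in the old library, 3.81-fold lower (log2 ratio -1.93, -2.42 to -1.45). By sex-linked UMIs it was 8.03-fold lower (-3.01, -3.90 to -2.18) in macrophage-like cells with Y-linked UMIs and no *Xist*, over 47 and 17 UMIs, and 1.63-fold lower (-0.71, -1.71 to 0.39) where *Xist* alone was found, over 12 and 31 UMIs, an interval that includes 0. In monocyte-like cells it stood at 78.6 CPM (65.6 to 93.5) and 33.8 CPM (28.6 to 39.8), a log2 ratio of -1.22 (-1.57 to -0.86). The 9 PT markers summed to 376 CPM in young and 86.6 CPM in old macrophage-like cells and to 8141 and 6747 CPM in PT-like cells, so *Fcgrt* per PT marker was higher in macrophage-like than in PT-like cells. B-like cells had 20.9 and 21.9 CPM, and plasmacytoid dendritic-like cells 37.5 and 40.0 CPM. In ILC2-like cells *Fcgrt* stood at 10.1 and 3.62 CPM, over 75 and 6 UMIs, a log2 ratio of -1.49 (-2.98 to -0.30).

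**Figure D3:**
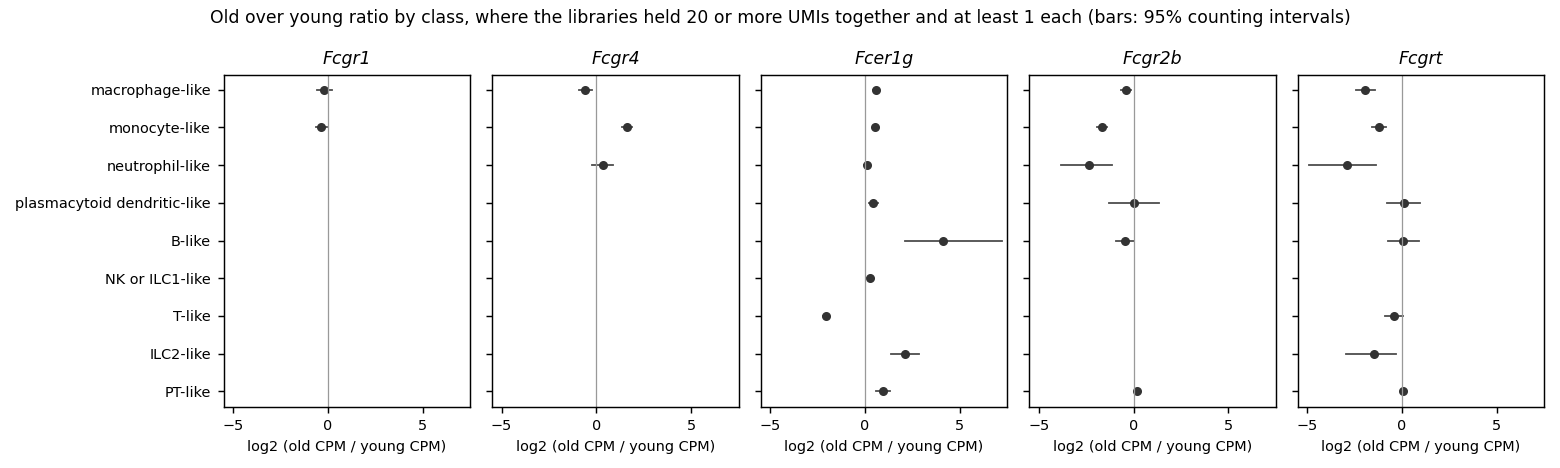
Log2 ratio of old over young CPM of the 5 genes (panels) by class, with 95% counting intervals as bars, for classes with 20 or more UMIs in both libraries together and at least 1 in each. *Fcgr4* lies at -0.59 in macrophage-like and 1.60 in monocyte-like cells, and *Fcer1g* at -2.03 in T-like cells. *Fcgr2b* and *Fcgrt* lie left of 0 in macrophage-like, monocyte-like and neutrophil-like cells and at 0.02 and 0.09 in plasmacytoid dendritic-like cells. *Fcgrt* also lies left of 0 in ILC2-like cells (-1.49, -2.98 to -0.30). *Fcgr2b* of B-like cells (-0.47) has an interval that reaches 0, and that of neutrophil-like cells includes 0 without 1 young cell (-1.24). In PT-like cells *Fcgr2b* and *Fcgrt* lie at 0.20 and 0.04.

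The members' ratios were set beside those of all genes. Of 2125 genes with at least 100 UMIs in macrophage-like cells, 11.1% were at least 2-fold higher and 9.27% at least 2-fold lower in the old library, and of the 5 members 0 were higher and 1, *Fcgrt*, was lower. Of 5974 such genes in monocyte-like cells, 4.03% were higher and 2.36% lower, against 1 member higher, *Fcgr4*, and 2 lower, *Fcgr2b* and *Fcgrt*. The median log2 ratio of all these genes was 0.16 in macrophage-like and 0.02 in monocyte-like cells, and that of the members was -0.41 and -0.35. With 5 members these counts are a description.

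The ratio of activating to inhibitory UMIs within the same cells does not depend on the total. In macrophage-like cells there were 0.72 (0.57 to 0.92) *Fcgr4* UMIs per *Fcgr2b* UMI among young cells and 0.64 (0.54 to 0.76) among old cells, a log2 change of -0.18 (-0.61 to 0.26). This value depends on the cells taken: it was 0.92 (0.57 to 1.27) with any 2 of 6 macrophage markers and -1.54 (-2.27 to -0.81) in cells with Y-linked UMIs and no *Xist*. In monocyte-like cells the ratio was 0.53 (0.43 to 0.64) in the young, 152 against 288 UMIs, and 5.08 (4.42 to 5.85) in the old library, 1218 against 240 UMIs, which is 9.62-fold (7.51 to 12.3) higher. Neutrophil-like cells had 1.72 (1.03 to 2.94) and 11.1 (5.16 to 28.6) *Fcgr4* UMIs per *Fcgr2b* UMI. Without the young cell that held most of its *Fcgr2b* UMIs the young value was 3.82 (1.93 to 8.22), and the log2 change of 2.70 (1.29 to 4.25) became 1.55 (-0.08 to 3.25). *Fcgr1* per *Fcgr2b* was 0.48 (0.36 to 0.63) and 0.57 (0.47 to 0.68) in macrophage-like and 0.48 (0.39 to 0.59) and 1.21 (1.01 to 1.44) in monocyte-like cells, 2.50-fold (1.90 to 3.29) higher in the old library. *Fcgr3* per *Fcgr2b* in monocyte-like cells was 2.14 (1.86 to 2.47) and 4.09 (3.55 to 4.73). In macrophage-like cells it was 1.38 (1.12 to 1.69) and 1.97 (1.73 to 2.25). The log2 change there was 0.51 (0.16 to 0.87), an interval that leaves out 0, unlike those of *Fcgr4* and *Fcgr1* in the same cells.

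**Figure D4:**
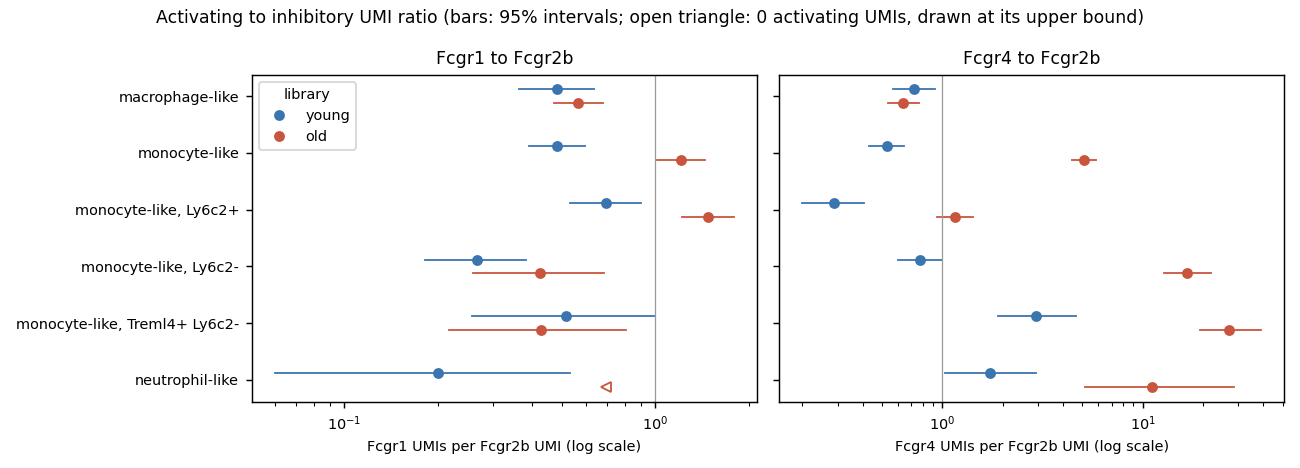
UMIs of *Fcgr1* (left) and *Fcgr4* (right) per UMI of *Fcgr2b* on a log axis, in the young (blue) and old (red) library, with 95% intervals as bars and an open triangle at the upper bound where no activating UMI was found. Macrophage-like cells, gated by the C1q genes, have overlapping intervals in both panels, which for *Fcgr4* depends on that gate (log2 change -0.18, or 0.92 with any 2 of 6 markers), and the *Fcgr4* ratio of monocyte-like cells goes from 0.53 to 5.08.

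Activating and inhibitory receptor UMIs were also followed cell by cell at 1000 UMIs. *Fcgr1* or *Fcgr4* without *Fcgr2b* was found in 12.9% (8.45 to 18.6) of young and 23.9% (19.6 to 28.7) of old monocyte-like cells. *Fcgr2b* without either was found in 12.4% (8.0 to 18.0) and 4.27% (2.41 to 6.95), and both in 1.08% and 0.85%. In macrophage-like cells both were found in 17.6% (9.70 to 28.2) and 10.4% (3.47 to 22.7). At this depth an absent UMI does not show an absent transcript.

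The monocyte-like class was not made of the same cells in the 2 libraries. Without *Ly6c2*, which marks classical monocytes, were 91 of 189 young and 209 of 356 old cells, a split chosen after the data were seen. In the cells without *Ly6c2*, *Fcgr4* stood at 184 young and 567 old CPM, *Fcgr2b* at 238 and 34.1 CPM and *Fcgr1* at 63.6 and 14.6 CPM. In the cells with *Ly6c2*, *Fcgr4* stood at 40.8 and 81.4 CPM, *Fcgr2b* at 142 and 70.7 CPM and *Fcgr1* at 98.0 and 104 CPM. *Fcgr4* was thus higher and *Fcgr2b* lower in the old library on both sides of the split, with log2 ratios of 1.62 (1.34 to 1.92) and -2.80 (-3.26 to -2.36) without *Ly6c2* and of 1.0 (0.51 to 1.51) and -1.0 (-1.33 to -0.68) with it. *Fcgr1* was lower in the old library without *Ly6c2*, at -2.13 (-2.91 to -1.37), and not beyond counting error with it, at 0.09 (-0.25 to 0.44).

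Other genes moved with the receptors in the cells without *Ly6c2*. The non-classical monocyte genes *Treml4* and *Spn* stood at 219 and 161 CPM when young and at 415 CPM each when old. *Ccr2*, a chemokine receptor gene of classical monocytes, stood at 592 and 53.7 CPM and the MHC class II gene *H2-Ab1* at 3864 and 619 CPM. In the narrower set with *Treml4* and without *Ly6c2*, 49 young and 161 old cells, *Fcgr4* still stood at 266 and 637 CPM and *Fcgr2b* at 90.9 and 23.5 CPM, with *H2-Ab1* at 1467 and 391 CPM and *Ccr2* at 467 and 25.5 CPM. In cells with neither *Treml4* nor *Ly6c2*, 42 young and 48 old, *Fcgr2b* stood at 405 and 88.3 CPM and *Fcgr4* at 89.7 and 211 CPM. The 7 dendritic markers summed to 223 CPM in young and 19.7 CPM in old monocyte-like cells as a whole. The part of composition in the receptor levels was not tested further. Macrophage-like cells differed as well: the 7 markers shared with monocytes summed to 5999 CPM at a median depth of 4743 UMIs in the young and to 25226 CPM at a median of 16930 UMIs in old cells.

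The methods name female mice, but cells of both sexes were in the libraries by their Y-linked and *Xist* UMIs. Monocyte-like cells that had Y-linked UMIs but lacked *Xist*, 104 young and 172 old, had *Fcgr4* at 68.9 and 153 CPM, and those that had *Xist* alone, 35 young and 104 old, at 146 and 494 CPM, higher in the old library in both. *Fcgr2b* fell by 1.60 and by 2.02 on the log2 scale in these groups. In macrophage-like cells *Fcgr4* went from 310.0 to 97.4 CPM in 28 young and 22 old cells with Y-linked UMIs and from 156 to 258 CPM in 13 and 16 cells with *Xist*. The log2 ratios were -1.67 (-2.24 to -1.10) and 0.73 (-0.19 to 1.79), of which the second interval includes 0, and the difference between these sets was not tested.

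**Figure D5:**
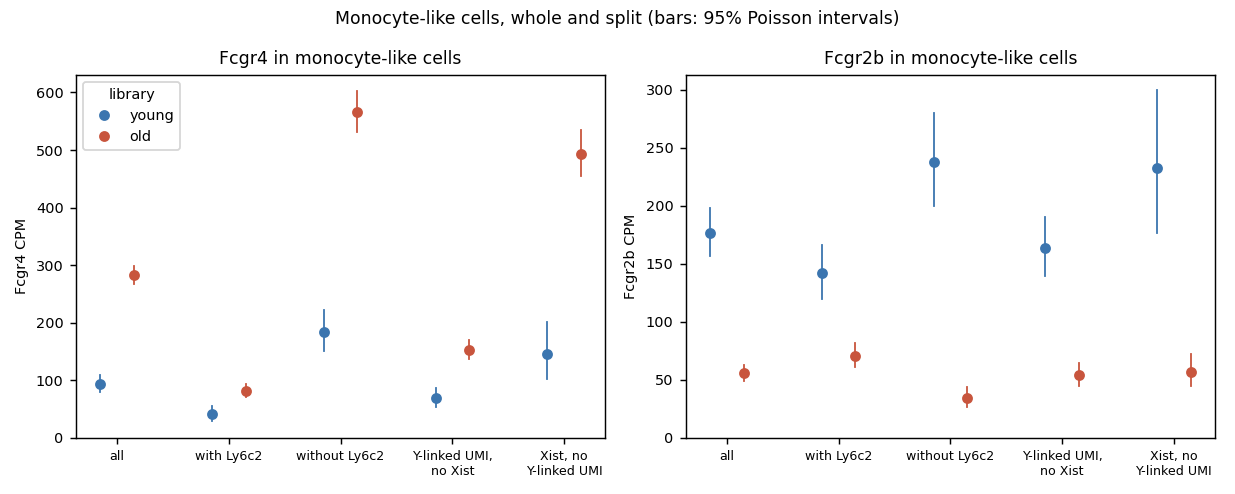
CPM of *Fcgr4* (left) and *Fcgr2b* (right) in monocyte-like cells of the young (blue) and old (red) library, for all cells, with and without *Ly6c2*, and by Y-linked and *Xist* UMIs, with 95% Poisson intervals as bars. In all 5 groups *Fcgr4* is higher and *Fcgr2b* lower in the old library.

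Genes around the receptors were followed in fixed lists in macrophage-like cells. Of the 10 other receptors that signal through the *Fcer1g* chain, 5 had at least 100 UMIs, 3 were at least 2-fold higher and 0 at least 2-fold lower in the old library, with a median log2 ratio of 1.69. Over all genes tested in these cells, 11.1% were higher and 9.27% lower by that fold, with a median of 0.16. *Clec4d* (7.42 and 123 CPM) and *Clec4e* (12.4 and 181 CPM), which encode the C-type lectins MCL and Mincle, had the largest ratios. *Fcgr3* (0.10) and *Clec4n* (0.69), which encodes Dectin-2, had the smallest. The 100 UMIs were summed over both libraries, of which the old held more UMIs of these cells. *Clec4d* (3 young and 135 old UMIs), *Clec4e* (5 and 198) and *Pira2* (16 and 140), the 3 higher ones, passed only through the old library. Their count therefore does not show a direction of the list. Of 14 signalling genes of activating receptors, 9 were measured at 100 UMIs or more, with a median of 0.31. Of these 9, 1 was higher, the Src-family kinase gene *Fgr* (39.6 and 154 CPM, 16 and 169 UMIs), and 0 were lower. The next largest ratio among the 9 was that of *Vav1* (0.60), and the smallest were those of *Prkcd* (-0.01) and *Pik3cd* (-0.17). Below 100 UMIs, *Vav3* (-1.71, -2.56 to -0.88) and *Blnk* (-1.80, -2.44 to -1.16) were at least 2-fold lower, so the filter left out lower genes. Also below it, *Plcg2* (0.45), *Btk* (-0.24) and *Card9* (-0.34) had intervals that include 0. *Syk* stood at 161 and 212 CPM, a log2 ratio of 0.40 (-0.01 to 0.82).

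Of 12 genes of inhibitory phosphatases, adaptors and receptors, 7 were measured in macrophage-like cells, 1 was at least 2-fold higher and 1 lower, with a median log2 ratio of -0.45. *Pirb* (1.19) and *Cd300a* (0.86), which encode inhibitory receptors, had the largest ratios, and *Lilrb4a* (-1.29) and *Cd72* (-0.79) the smallest. *Inpp5d*, which encodes SHIP1, stood at 178 and 130 CPM (-0.45). Of 8 genes of the interferon-γ response, 6 were measured, 0 were higher and 1 was lower, with *Cxcl9* at a log2 ratio of 0.42 and *Irf1* (-0.81) and *Ciita* (-1.37) at the lower end, and a median of -0.42. Of 5 ITAM adaptors only *Tyrobp* was measured (0.38), and of 13 other Fc receptors and partners only *B2m* (0.40) and *Fcgr3*.

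The same lists in monocyte-like cells stood against a median log2 ratio of 0.02 over all genes, of which 4.03% were at least 2-fold higher and 2.36% lower. Of 5 measured receptors that use the *Fcer1g* chain, 3 were higher, *Clec4n* (1.97), *Clec4d* (1.72) and *Clec4e* (1.60), and 0 were lower, whereas in macrophage-like cells the 3 were *Clec4d*, *Clec4e* and *Pira2*. *Pira2*, which encodes an activating immunoglobulin-like receptor, had 0.58 in monocyte-like cells and *Fcgr3* -0.74. Of 13 measured signalling genes, 3 were higher and 0 were lower, with a median of 0.35. Of 10 measured inhibitory genes, 1 was higher, *Cd72* (1.55), and 0 were lower, with a median of 0.25, against -0.45 over the 7 of macrophage-like cells. Of 8 measured genes of the interferon-γ response, 1 was higher, the GTPase gene *Gbp2* (1.55), and 1 lower, *Ciita* (-1.41), with a median of 0.22, against -0.42 over the 6 of macrophage-like cells. The difference between the classes was not tested.

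Over the 18 levels of 9 classes in 2 libraries, which share libraries and depth, the genes most like each member were ranked by Pearson correlation of log2(CPM + 1) among 14544 genes outside the gate. *Fcgr1* was most like *Plxna4os1* (r = 0.987), followed by *Msr1*, *Mmp12*, *Slamf8* and *Dpep2*. *Fcgr4* was most like *Slc11a1* (r = 0.988), which encodes a metal transporter of phagosomes, followed by *Cd300ld*, *Klra2*, *Tgfbi* and *Clec4n*. *Fcer1g* was most like the adaptor gene *Tyrobp* (r = 0.944), followed by *Itgax*, *Timp2*, *Ccl3* and *Haus8*. *Fcgr2b* was most like *BC028528* (r = 0.933), followed by *Erp29*, *B3gnt8*, *Map3k20* and *Apoe*, and *Fcgrt* was most like *Sap30* (r = 0.920), followed by *Selenom*, *Adap2*, *Lgmn* and *Caml*. The order is a description of these 18 levels.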

How the data were processed

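The 2 deposited matrices hold raw UMI counts per gene and barcode, which the authors made with Cell Ranger 3.1.0 on the mm10 genome, without normalization. The members and gene lists were chosen with earlier results of these data known. A cell needed at least 3 markers of a class (5 of 9 for PT), and macrophage-like cells at least 2 of the 3 C1q genes, a rule set after the data were seen. Droplets called doublets by Scrublet (328 young, 246 old) were kept. CPM had exact Poisson, shares Clopper-Pearson and ratios exact binomial 95% intervals. With 1 library per age there was no test and no p-value. Thinning used seed 7. On simulated counts, all 200 changed genes lay on the right side of 0, and intervals covered the truth for 94.5% (macrophage-like, 2125 genes) and 97.0% (monocyte-like, 5974 genes) of them. The intervals hold counting error only, so this check does not extend to the variation between cells and mice. Named genes were the members in each class, the 5 genes most like each, and the 2 largest and 2 smallest ratios of each list among genes with at least 100 UMIs in macrophage-like cells. Some genes that this rule names are not reported here. Other genes named beside them were chosen after their values were seen. Positions came from GENCODE M21 and promoters from RefSeq, in which all 5 members matched. Software was Scanpy 1.11.5 (for Scrublet), SciPy 1.17.1, NumPy 2.4.6, Matplotlib 3.10.9 and pandas 2.3.3 under Python 3.11.15. The alternatives were at most 10% mitochondrial UMIs, at least 500 genes, doublets removed, 1 more marker, mixed cells kept, each cell's CPM averaged, totals without abundant genes, cells by Y-linked or *Xist* UMIs, and thinning to 500 or 2000 UMIs or none.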

Additional observations from a re-analysis of the deposited data

Results flagged for a closer look

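Some genes had old over young ratios of opposite sign in different classes, each with an interval that leaves out 0 and at least 100 UMIs in both libraries. The difference between classes was not tested, since each age has 1 library. *Fcgr4* had a log2 ratio of -0.59 in macrophage-like and 1.60 in monocyte-like cells. *Fcer1g* had -2.03 in T-like cells and 0.57 in macrophage-like, 0.52 in monocyte-like, 0.43 in plasmacytoid dendritic-like, 0.25 in NK or ILC1-like and 0.95 in PT-like cells, in the last at 1.18 and 2.27 CPM. *Fcgr2b* had -0.41 in macrophage-like and -1.67 in monocyte-like cells and 0.20 in PT-like cells. *Fcgrt* had -1.22 in monocyte-like and 0.036 in PT-like cells. The PT-like *Fcgrt* interval (0.01 to 0.07) included 0 under some alternatives, at -0.007 to 0.054 with abundant genes left out, -0.008 to 0.059 with at most 10% mitochondrial UMIs, -0.001 to 0.060 with 1 more marker and -0.002 to 0.170 in cells with *Xist*.

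*Fcer1g* was also measured in cells that the gate put in no class, at 193 (young) and 174 CPM (old), above the 4.73 and 20.5 CPM of ILC2-like cells. In these, 218 young and 137 old cells had an *Fcer1g* UMI, and *Ncr1* was found in 76.6% and 68.6% of those cells.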

How the results depend on the processing

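No replicate was left out, since each age has 1 library, and depth limits *Fcgr1* in neutrophil-like cells and *Fcgr1* and *Fcgr4* in lymphoid classes, which had at most 3 UMIs.

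Of 162 values of 16 main results under alternatives, 122 stayed within the main 95% interval, 36 lay outside it and 4 changed sign. Of 148 values of 20 further results, 130 stayed within it, 16 lay outside and 2 changed sign. A change of sign was counted only where the main interval leaves out 0. Where it includes 0, values of the other sign were counted as within or outside, such as macrophage-like *Fcgr1* with *Xist* (0.46). No main result left its interval with abundant genes left out, at most 10% mitochondrial UMIs, at least 500 genes, doublets removed, 1 more marker or mixed cells kept. The mean of each cell's CPM gave *Fcer1g* 0.71 in macrophage-like and 0.60 in monocyte-like cells and *Fcgrt* -1.39 in macrophage-like cells. In cells with Y-linked UMIs and no *Xist*, the log2 ratios in macrophage-like cells were -1.67 for *Fcgr4*, 0.27 for *Fcer1g*, -0.13 for *Fcgr2b*, -3.01 for *Fcgrt* and -1.54 for *Fcgr4* to *Fcgr2b*, and in monocyte-like cells 1.15 for *Fcgr4* and 2.75 for *Fcgr4* to *Fcgr2b*. In cells with *Xist* and no Y-linked UMI they were 0.46 for *Fcgr1*, 0.73 for *Fcgr4*, -0.13 for *Fcgr2b*, -0.71 for *Fcgrt* and 0.86 for *Fcgr4* to *Fcgr2b* in macrophage-like cells. In monocyte-like cells with *Xist* they were 0.58 for *Fcgr1*, 0.64 for *Fcer1g*, -2.02 for *Fcgr2b*, -0.71 for *Fcgrt* and 3.79 for *Fcgr4* to *Fcgr2b*, and *Fcer1g* was -0.23 in NK or ILC1-like and -0.10 in plasmacytoid dendritic-like cells. These sets hold fewer cells, and whether sex or cell number moved the values was not tested.

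In neutrophil-like cells *Fcer1g* had 0.26 (0.13 to 0.38) with 1 more marker and 0.25 (0.13 to 0.37) with mixed cells kept, intervals that leave out 0, and its young monocyte-like over neutrophil-like value of 0.04 was 0.25 with mixed cells kept. *Fcgr2b* of neutrophil-like cells with *Xist* gave no ratio.

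Alternatives added after the data were seen moved other values. With any 2 of 6 macrophage markers in place of the C1q genes, macrophage-like cells gave *Fcgr4* 0.21, *Fcgr2b* -0.71 and *Fcgr4* to *Fcgr2b* 0.92, so *Fcgr4* was not lower in old cells under that gate. Monocyte-like cells with *Ly6c2* gave *Fcgr1* 0.090, *Fcgr4* 1.0, *Fcer1g* 0.26, *Fcgr2b* -1.0 and *Fcgr4* to *Fcgr2b* 2.0. Those without it gave *Fcgr1* -2.13, *Fcer1g* 0.81, *Fcgr2b* -2.80 and *Fcgr4* to *Fcgr2b* 4.42, and those with *Treml4* and without *Ly6c2* gave *Fcgr1* -2.23, *Fcgr4* 1.26, *Fcer1g* 0.81 and *Fcgr2b* -1.95. The old minus young share of monocyte-like cells, 11.1 percentage points for *Fcgr4* and -8.31 for *Fcgr2b* at 1000 UMIs, was 17.9 and -20.5 at 2000 UMIs and 26.6 and -22.6 without thinning.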

Other observations

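Cells gated as basophils or mast cells were too few to compare, 17 young and 10 old, but each of them had an *Fcer1g* UMI, at 2437 CPM (2107 to 2804) and 2337 CPM (2018 to 2691), against 2226 and 3184 CPM in monocyte-like cells. None had an *Fcgr1* or *Fcgr4* UMI, and 2 *Fcgr2b* UMIs were found in each library. In these cells the γ chain is known as part of the IgE receptor.

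Endothelial-like cells, 280 young and 17 old, held *Fcgrt* at 166 CPM (146 to 187) and 121 CPM (66.2 to 203), below the PT-like level in the young library by 0.37 (0.19 to 0.55) on the log2 scale. Their *Fcgr1*, *Fcgr4* and *Fcgr2b* counts were 0 in both libraries.

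Cells left out for markers of more than 1 lineage, or for a tie between classes, held 16.2% of the young and 14.1% of the old *Fcgr1* UMIs. They also held 22.4% and 29.5% of the *Fcgr4* UMIs and 21.0% and 24.7% of the *Fcer1g* UMIs.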
